A study of Mus musculus and Rattus norvegicus with 4 samples.

Results

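The genes described here are 10 regulators of alternative splicing in muscle: Mbnl1, Mbnl2, Celf1, Celf2, Rbfox1, Rbfox2, Rbm20, Rbm24, Qk and Ptbp1. They were chosen by name, with earlier results of these data known, out of 21887 protein-coding mouse genes on placed chromosomes. All 10 symbols were found in the gene table. MEF2A belongs to the myocyte enhancer factor 2 transcription factors, which drive genes of muscle differentiation. Its binding had been mapped by ChIP-exo, chromatin immunoprecipitation with exonuclease trimming of the bound DNA, in C2C12 cells, an established mouse myoblast line, after 48 h in differentiation medium with 2% horse serum. The series held 4 libraries, MEF2A and normal rabbit IgG in C2C12 cells and in primary rat cardiomyocytes, with 1 library per group. The C2C12 MEF2A peak list, of 2797 peaks, is the source of every value below. A peak list carries no expression values, so the cell type could not be checked against marker genes. Read depth is unknown, and without replicates the values describe this library and carry no error.

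Splicing regulators of this kind are RNA-binding proteins that sit on or near an exon of the unspliced transcript and favour its inclusion or its skipping. In developing muscle, MBNL and CELF proteins act on many of the same transcripts, often in opposite directions. The sequestration of MBNL proteins by repeat RNA causes the splicing defects of myotonic dystrophy. RBFOX, RBM20, RBM24 and QK proteins shape further muscle exons, whereas PTBP1 represses many exons that differentiated cells include.

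Mbnl2, Celf2 and Rbfox2 had the strong MEF2A peaks of the group. Celf1, Rbm24, Mbnl1 and Rbfox1 had moderate or weak ones, and Rbm20, Qk and Ptbp1 had none. The strong peak of Rbfox2 lay 9.48 kb outside its span, whereas those of Mbnl2 and Celf2 lay inside theirs. A peak went to the protein-coding gene whose span was closest, up to a distance of 100 kb. By this rule 7 of the 10 genes (70.0%) had at least 1 peak, against 7.73% of all protein-coding genes (1691 of 21887). Because the genes were chosen with earlier results of these data known, the choice may have built in part of this difference, which was not tested. Together the 7 genes took 14 peaks, of which 11 lay inside a gene span and 3 outside. The authors' score, higher for stronger peaks and never below 50.08 in this list, ranged from 53.88 to 669 among the 14. Most of these genes are long, which gives them more room to take a peak, and this is set out further below. Rbm24 (13.0 kb) and Ptbp1 (10.0 kb) are shorter than the median protein-coding gene (17.2 kb).

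**Figure D1:**
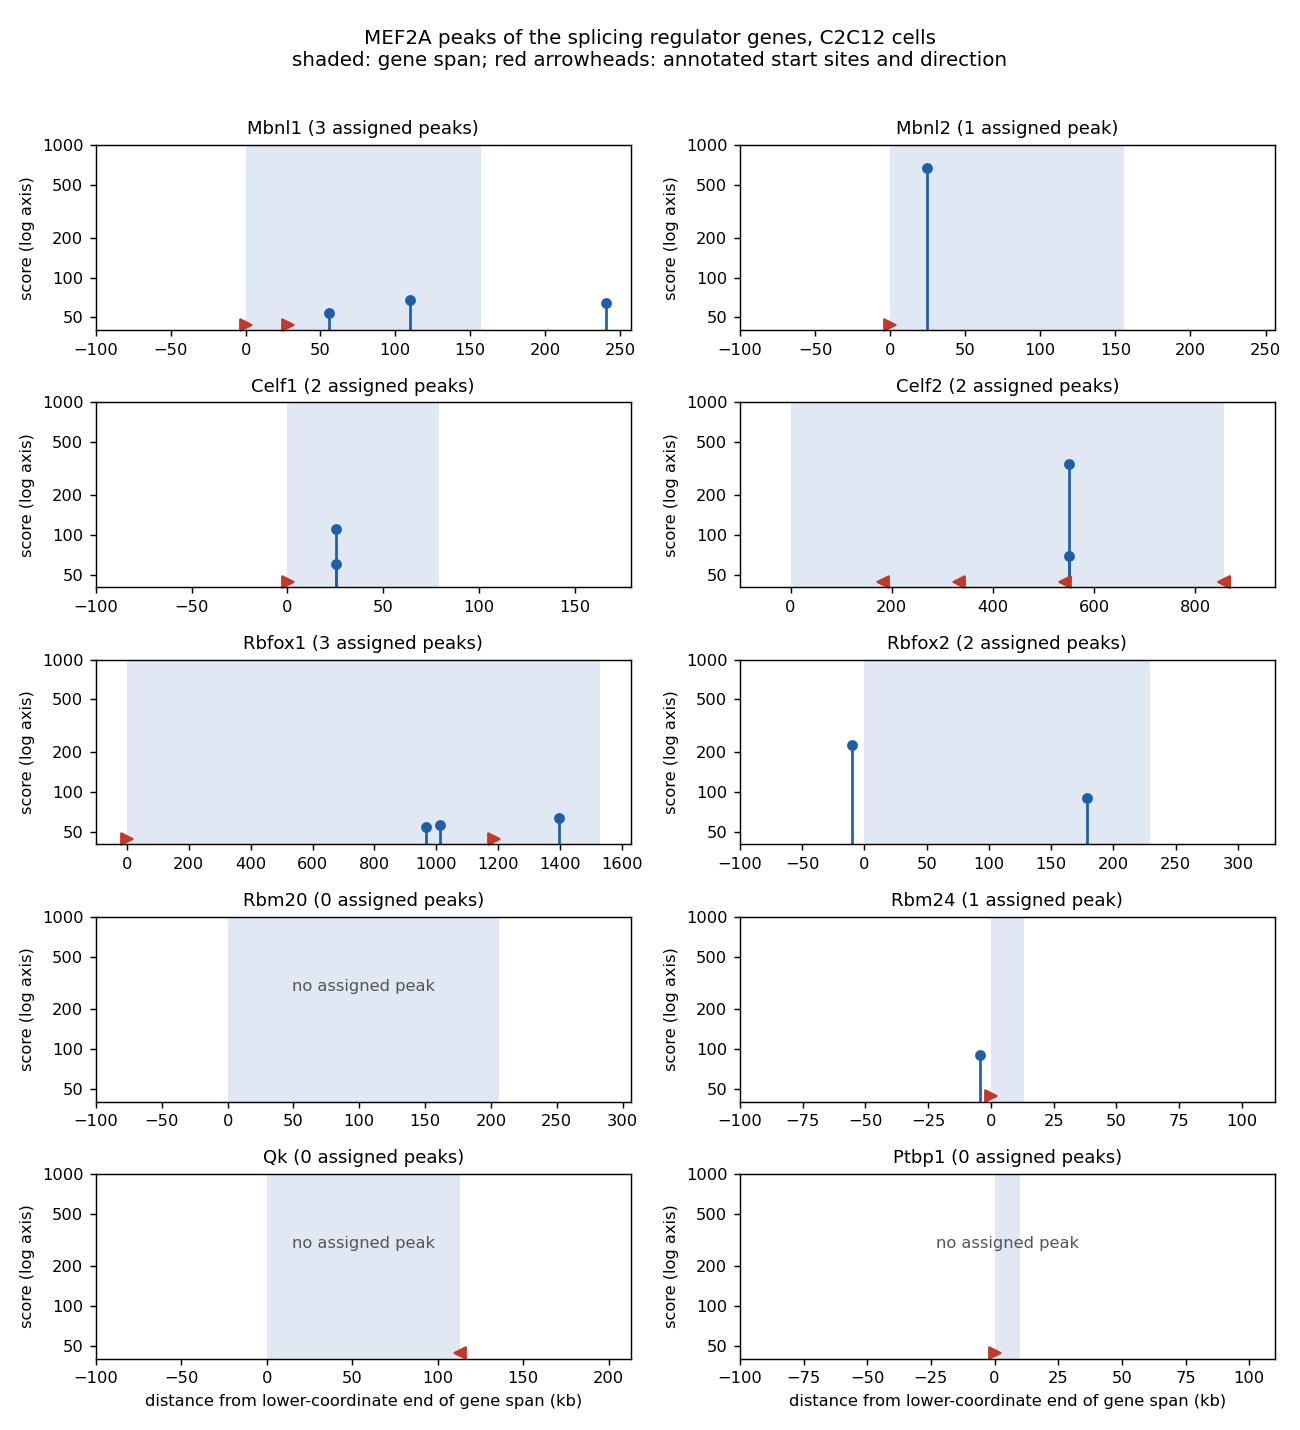
MEF2A peaks assigned to each of the 10 genes in C2C12 cells. The horizontal axis gives the distance in kb from the lower-coordinate end of the gene span (shaded) and the vertical log axis the authors' score, with blue stems for peaks and red arrowheads for annotated start sites and their direction (none were drawn for Rbfox2 and Rbm20). The highest stem belongs to Mbnl2 (669), the Celf2 pair stands beside an internal start site, and the panels of Rbm20, Qk and Ptbp1 are empty.

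Stretches of sequence are shown for the start sites nearest to a peak of the 10 genes, those of Rbm24 and of an internal Celf2 start site, and for Tpm2 and Srsf7, genes of the lists described further below with a peak inside the 250 bases before an annotated start site. Listed genes with no promoter window in the table used here could not be examined in this way. The Rbm24 and Celf2 stretches are the 250 bases before the start site, at chr13:46418050-46418299 on the plus strand and chr2:7081303-7081552 on the minus strand. The Tpm2 and Srsf7 stretches are the parts of the peak that fall within the 250 bases before the start site, at chr4:43523655-43523804 and chr17:80207306-80207378, both on the minus strand. All are given 5′ to 3′ from RefSeq on GRCm38.p6, with capitals for the E-box CANNTG, the motif of MyoD-family and other basic helix-loop-helix factors, which reads alike on both strands.
Rbm24: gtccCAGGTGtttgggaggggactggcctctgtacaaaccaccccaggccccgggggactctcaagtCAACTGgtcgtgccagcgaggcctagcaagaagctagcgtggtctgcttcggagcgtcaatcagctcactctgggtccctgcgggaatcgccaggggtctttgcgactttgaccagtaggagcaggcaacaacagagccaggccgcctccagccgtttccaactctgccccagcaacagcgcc
Celf2: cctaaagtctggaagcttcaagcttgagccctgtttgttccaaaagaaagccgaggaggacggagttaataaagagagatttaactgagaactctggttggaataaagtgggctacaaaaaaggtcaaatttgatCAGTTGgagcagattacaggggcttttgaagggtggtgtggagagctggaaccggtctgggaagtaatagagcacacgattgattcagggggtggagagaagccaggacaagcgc
Tpm2: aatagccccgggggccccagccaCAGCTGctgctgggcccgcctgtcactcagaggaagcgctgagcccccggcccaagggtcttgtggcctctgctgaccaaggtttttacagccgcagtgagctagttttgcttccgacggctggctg
Srsf7: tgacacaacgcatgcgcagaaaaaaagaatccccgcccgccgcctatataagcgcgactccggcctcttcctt

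The Rbm24 stretch held 2 E-boxes, beginning 246 and 183 bases before the start site, and the Celf2 stretch held 1, beginning 115 bases before it. Over all 14 annotated start sites of 8 of the genes (those of Rbfox2 and Rbm20 were not used here), 8 of the 250-base windows (57.1%) held an E-box, against 62.8% of 21263 windows of protein-coding genes. The MEF2 consensus, an AT-rich palindrome, was in 0 of the 14 windows and in 2.61% of all windows (554). The absence of these letters holds for these windows alone and says nothing of MEF2A itself. None of the 14 peaks overlapped a promoter window of any gene with windows here, which leaves out Rbfox2. Of all 2797 peaks, 64 (2.29%) overlapped one of a protein-coding gene.

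The MBNL genes differed in the strength of their peaks. Mbnl2 (chromosome 14, 120275652 to 120431698, mm10), which encodes a muscleblind protein best known from brain and muscle, held a single peak at 120299701 to 120300082. It scored 669, which was rank 67 of 2797, and with 382 bp it was the widest of the 14. It lay inside the span, 24.0 kb downstream of the start site and 15.5% of the way along the gene, and the next protein-coding gene, Rap2a, was 178 kb away. The same stretch also lies inside the span of the long noncoding RNA gene Gm52122 (120271062 to 120320244), so by position the peak belongs to both.

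Mbnl1 (chromosome 3, 60472559 to 60629750), the muscleblind protein most studied in skeletal muscle, had 3 peaks, all below the median score of the list (77.0). A peak at 60528239 to 60528357 scored 53.88 and lay 27.1 kb downstream of the nearer of the 2 annotated start sites. A peak at 60582259 to 60582364 scored 68.2 and lay 81.1 kb downstream of the same start. The third, at 60713013 to 60713132, scored 63.7 and lay 83.3 kb beyond the gene, the longest distance among the 14. Their ranks were 2588, 1645 and 1847, so no Mbnl1 peak came near that of Mbnl2, although the spans of both genes are of similar length (157 kb for Mbnl1 and 156 kb for Mbnl2).

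Both CELF genes carried a close pair of peaks with a stronger and a weaker partner. Celf2 (chromosome 2, 6539694 to 7396341), a CUG-binding protein with several start sites, held a peak at 7089076 to 7089414 scoring 342 (rank 212) and a peak at 7090493 to 7090632 scoring 69.4. They were separated by 1078 bp and lay inside the span. The pair was 7.77 and 9.19 kb upstream of an internal start site at 7081302, whose sequence is given above. Measured from the outermost start sites, at 7396000 and 7396198, the nearest peak was more than 305 kb downstream.

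Celf1 (chromosome 2, 90940259 to 91019497), which acts against MBNL proteins on exons such as the fetal exon of cardiac troponin T, held peaks at 90965591 to 90965762 and 90965821 to 90965919. The first scored 110.7 (rank 922) and the other 59.7 (rank 2055). Only 58 bp separated them, and both lay 25 kb downstream of the start site, 32% of the way along the gene. Whether they are 1 bound region that the peak caller split was not tested.

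The RBFOX genes contrasted in the same way as the MBNL genes. These proteins bind a short motif in introns and their effect depends on whether they bind before or after the exon. Rbfox2 (chromosome 15, 77078990 to 77308434), the widely expressed member, was assigned a peak at 77069138 to 77069508 with a score of 225 (rank 368) and a peak at 77257427 to 77257652 with a score of 89.5 (rank 1155). The weaker one lay inside the span, 77.8% of the way from its lower-coordinate end. The stronger one lay 9.48 kb below that end, between Rbfox2 and 2 other genes, Apol6 at 12.0 kb and Mb, which encodes the oxygen carrier myoglobin, at 18.5 kb. The noncoding gene Gm24753, annotated as a small nuclear RNA, was nearer still, at 1.24 kb, so the link of this peak to Rbfox2 rests on the nearest-gene rule. A further peak (score 67.9) lay inside Mb, 41.4 kb from Rbfox2, and was assigned to Mb.

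Rbfox1 (chromosome 16, 5884793 to 7412480), the member known from heart, skeletal muscle and neurons, held 3 weak peaks. They lay at 6849805 to 6849937 (score 53.96), 6897151 to 6897262 (score 55.8) and 7282508 to 7282628 (score 63.4). The first pair was 220 and 173 kb upstream of the internal start site at 7069835, and the third was 213 kb downstream of it. Their ranks were 2584, 2325 and 1864. With a span of 1528 kb, longer than 99.9% of protein-coding genes, Rbfox1 had 1.74 peaks per Mb of genome assigned to it, against 1.21 over all protein-coding genes.

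Rbm24 (chromosome 13, 46418102 to 46431099), needed for the inclusion of many muscle exons in heart and skeletal muscle, had the peak closest to an annotated start site among the 8 genes with such sites. It lay at 46413728 to 46413887, scored 90.2 (rank 1151) and was 4.41 kb upstream of the start at 46418300. At 13.0 kb, Rbm24 was the shortest of the 7 genes with a peak, and the next protein-coding gene, Cap2, was 88.0 kb from the peak. Rbm20 (chromosome 19, 53660989 to 53867083), which represses titin exons in the heart, had no peak in its span of 206 kb or within 100 kb of it. The nearest, scoring 73.3, lay 117 kb away and was assigned to Dusp5, a phosphatase gene 1.86 kb from it. Being nearer to Dusp5, this peak would not go to Rbm20 by the nearest-gene rule under any distance limit.

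Qk (chromosome 17, 10206471 to 10319361), which encodes the quaking protein, was 385 kb from the nearest peak (score 140.6). Ptbp1 (chromosome 10, 79854432 to 79864435), the polypyrimidine tract-binding repressor, was 484 kb from the nearest peak (score 193.7). Ptbp1 had the fewest bases to take peaks from, at 22.0 kb of assigned genome. Qk had 213 kb, less than most of the others but at percentile 91.5 of all protein-coding genes. This was more than for Celf1 (96.0 kb) and Rbm24 (107 kb), which both had a peak. Binding too weak to enter the list cannot be seen at Rbm20, Qk and Ptbp1.

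**Figure D2:**
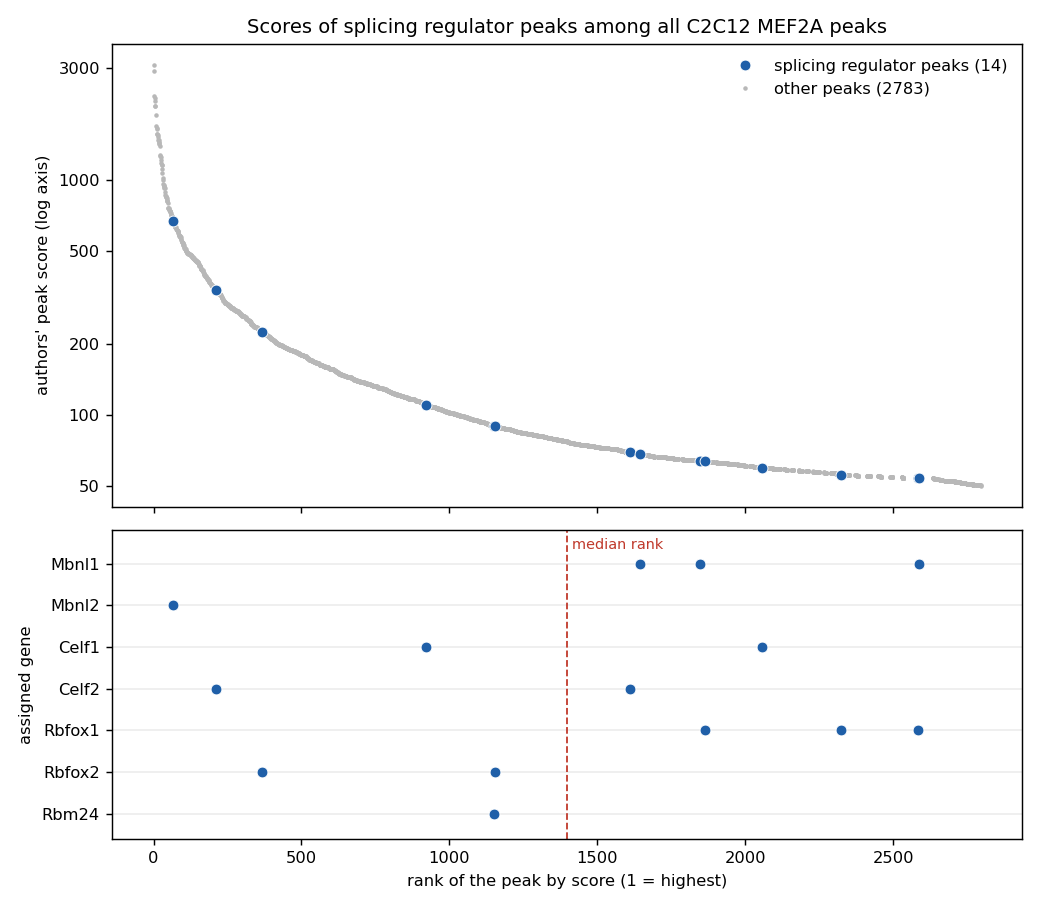
Scores of all 2797 C2C12 MEF2A peaks in order of rank (upper panel, log axis), with the 14 peaks of the splicing regulator genes in blue and the other 2783 in grey, and the rank of each of the 14 by gene (lower panel). Mbnl2, Celf2 and Rbfox2 each have 1 peak far to the left, at ranks 67, 212 and 368, that of Rbfox2 from outside its span. All peaks of Mbnl1 and Rbfox1 lie right of the dashed median rank.

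As a set, the 14 peaks had a lower median score than the rest of the list. The median was 68.8 (quartiles 60.6 and 105.5), against 77.2 (59.1 and 138.8) for the other 2783 peaks, and 6 of the 14 were above the median of all peaks. A score of 200 or more was reached by 3 of the 14 (21.4%) and 421 of the others (15.1%), and of 100 or more by 4 (28.6%) and 1025 (36.8%). Median widths were 136.5 bp and 144 bp. Inside protein-coding spans lay 11 of the 14 (78.6%) and 1305 of the 2783 others (46.9%). Peaks with no gene within 100 kb cannot lie inside a span, and of the 2292 other peaks that were assigned to a gene the share was 56.9%. None of the 14 was within 1 kb of an annotated start site of a protein-coding gene, against 127 (4.56%) of the others. Start sites of Rbfox2 were not used here, so the Rbfox2 peaks could not be compared with them. In long genes more of the assigned genome lies inside the span, and no test of these differences was made.

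Length has to be read beside the count of 7 genes with a peak. The median span was 157 kb for the 10 genes and 17.2 kb for all protein-coding genes, and the median length of genome from which a gene could be assigned a peak was 248 kb against 45.8 kb. Of the 10 genes, 7 were among the 2189 with the longest assigned lengths (201 to 2513 kb), where 26.7% of genes had a peak, and 5 of these 7 did. Celf2 (1002 kb) and Rbfox1 (1728 kb) were at percentiles 99.6 and 99.9 of all genes, so 26.7% is not matched to their length. Celf1 and Rbm24 fell among 2188 genes with 91.2 to 130.5 kb, where 11.7% had a peak, and both had. Ptbp1 fell among those with 17.2 to 24.4 kb, where 2.10% had one. Per length, the 10 genes held 3.255 peaks per Mb, against 1.21 per Mb over all protein-coding genes. Without Rbfox1, the value was 4.27 per Mb. Rbfox1 had the lowest density of the 7 genes with a peak, so leaving it out could only raise the value. With peaks under 1 kb apart merged, as the close Celf1 pair is, the 10 genes held 13 peaks rather than 14. The same merging took the whole list from 2797 peaks to 2560. The density was highest for Celf1 (20.8 per Mb, from its close pair), followed by Rbm24 (9.31), Mbnl1 (8.40), Rbfox2 (7.14), Mbnl2 (3.58), Celf2 (1.995) and Rbfox1 (1.74). At least 2 peaks were assigned to 5 of the 10 genes, against 1.96% of all.

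**Figure D3:**
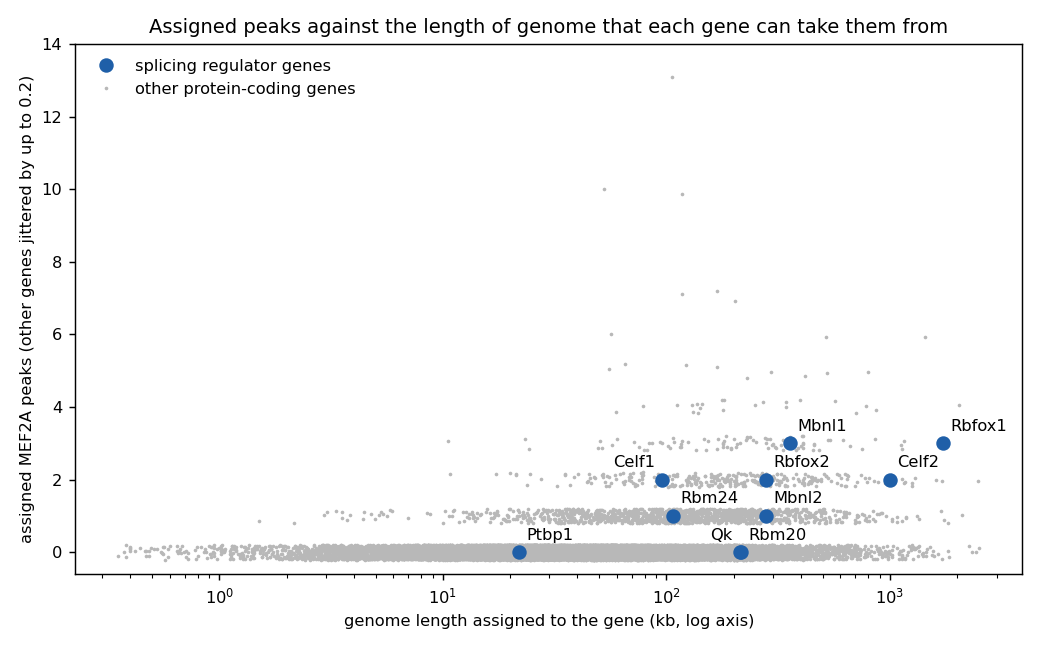
Number of assigned MEF2A peaks (vertical axis) against the assigned genome length of the gene (horizontal log axis, kb), with the 10 splicing regulator genes in blue and labelled and the other protein-coding genes as grey points jittered vertically by up to 0.2. Rbfox1 and Celf2 lie far to the right with 3 and 2 peaks, whereas Celf1 and Rbm24 have 2 and 1 at about 100 kb.

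By the nearest-gene rule up to 100 kb, peaks in the wider set of splicing factors were about as common as among genes at large. Of 71 other splicing regulators, among them SR proteins, hnRNPs and relatives of the 10 genes, 4 (5.63%) had a peak, a share near the 7.73% of all genes. Their median assigned length, 44.8 kb, was near that of all genes too. With a limit of 10 kb, 2 of the 71 had a peak, a lower share than the 5.75% of all genes. With all annotated genes competing it was again 2, against 5.96% of all genes. Cpeb4, counted on this list although it is a cytoplasmic polyadenylation element-binding protein, had the strongest peak, scoring 289 at 73.6 kb. It was the 1 gene of the list with a score of 200 or more. Msi2, a Musashi RNA-binding protein, held 3 peaks scoring 147.8, 64.9 and 56.0 inside its span. Srsf7, an SR protein, had a peak of 67.2 at its start site, and Ptbp2, the relative of Ptbp1 known from neurons, one of 58.4 at 40.4 kb. The Srsf7 stretch printed above covers 49.7% of its peak and holds neither an E-box nor the MEF2 consensus, which 22.9% and 0.541% of all windows hold in the same 73 bases.

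Among genes whose muscle transcripts are known targets of these splicing factors, 22 of 66 (33.3%) had a peak, against 7.73% of all genes. This list too was chosen with earlier results of these data known, and the difference was not tested. The count was 20 of 64 (31.2%) without Mbnl1 and Mbnl2, which are on both lists. Per length this was 2.345 peaks per Mb without them, against 1.21 for all genes, and the median assigned length was 130.5 kb. The highest scores after Mbnl2 were those of Kif13a, a kinesin (598, at 29.3 kb), Tpm2, the beta-tropomyosin gene (315, at 72 bp), and Lrrfip1 (245, inside). Insr, the insulin receptor gene, whose MBNL-dependent exon is mis-spliced in myotonic dystrophy, also held a peak inside its span. Among the others were Ttn, Camk2d, Ank3, Itga7, Dtna, Fxr1, Mef2c, Bin1, Sorbs2, Arhgef7, Tnnt3, Pdlim3, Fn1, Fhod3 and Camk2b. The Tpm2 stretch printed above is the 46.9% of its peak that falls 101 to 250 bases before the start site, and it holds 1 E-box, as 46.9% of all windows do in the same 150 bases, and no MEF2 consensus.

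**Figure D4:**
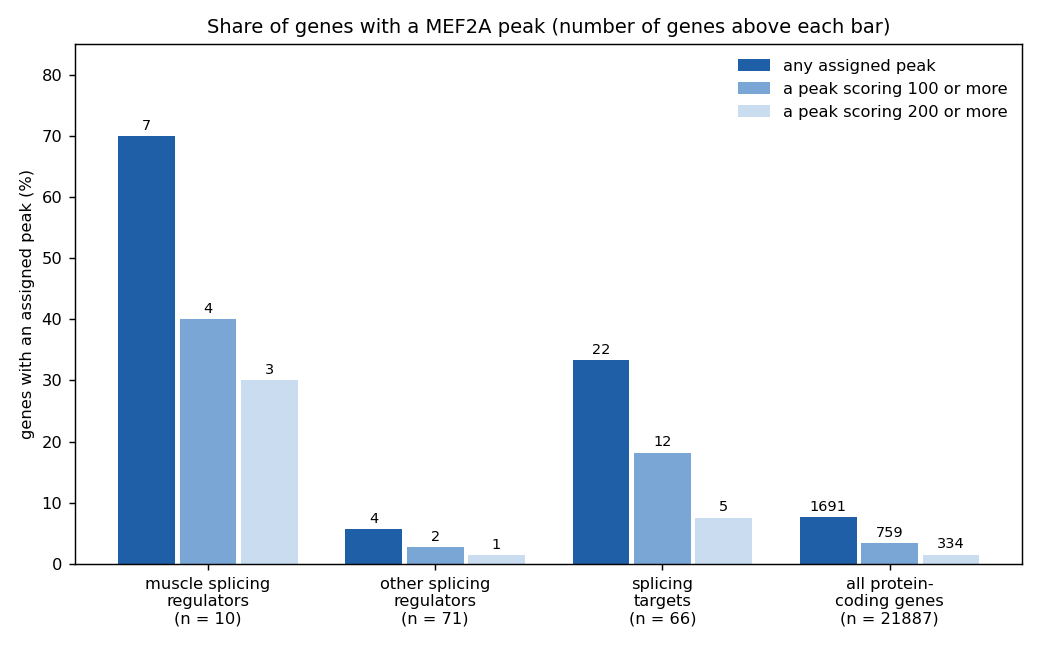
Share of genes with an assigned MEF2A peak in C2C12 cells (vertical axis, %) for the 10 splicing regulators, 71 other splicing regulators, 66 splicing targets and all 21887 protein-coding genes, with the number of genes above each bar. The shades stand for any peak, a score of 100 or more and a score of 200 or more, and the 10 regulators have 7, 4 and 3 genes at these limits.

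The scores set which of the genes pass a stricter limit. With a score of 100 or more, Mbnl2, Celf1, Celf2 and Rbfox2 had a peak (4 of 10), against 3.47% of all protein-coding genes. With 200 or more, Mbnl2, Celf2 and Rbfox2 had one, against 1.53%. At both limits Rbfox2 passed by the peak 9.48 kb outside its span, which lies nearer to the noncoding gene Gm24753. The same 66 targets gave 12 and 5 genes at these scores and the 71 other regulators 2 and 1. A peak near a gene is not evidence that MEF2A changes its expression, and no expression values were analysed here.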

How the data were processed

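MEF2A-bound DNA was taken from sonicated nuclei and made into ChIP-exo libraries with a gel selection of 120 to 160 bp, per the labels' protocols. Per the submitters' processing notes, the tools were MACS 1.4.2, BWA 0.5.9 and CASAVA 1.7.0 with SAMtools and Picard, without settings, and the mouse build was mm10. The authors deposited 1 peak list per MEF2A library, with a position and a score per peak and no header; the scale of the score is not stated, so it serves to describe and rank peaks within the list. The sources used here do not say whether the IgG library served as control. The rat list was not used, since no rat annotation was used here.

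Deposited starts were taken as 0-based and are printed 1-based. Genes, spans and promoter windows (250 bases before to 50 after each start site) came from RefSeq on GRCm38.p6, the assembly behind mm10, and strand and start sites came from the promoter windows. Exons were not distinguished. A peak went to the closest protein-coding span if that lay within 100 kb (2306 of 2797 peaks), and 26 peaks that overlapped more than 1 span were counted under every such gene. The genome assigned to a gene is the length whose bases would go to it. Functions were checked on simulated peaks and genes. Values are counts with no test, since each group has 1 library and peaks are not replicates. The 10 genes, and the 71 and 66 genes of the other lists, were chosen with earlier results of these data known. All members are named with every peak, and the genes of the other lists are named if they have a peak, with values for the 4 highest-scoring of each list; 1 gene that this rule takes is not reported here. Motifs were searched in the 250 bases before each start site. Alternatives were other score and distance limits, merging, competition from all annotated genes, every gene within 100 kb, and, chosen after seeing the data, leaving out dense runs and wide peaks. Python 3.11.15, numpy 2.4.6, pandas 2.3.3 and matplotlib 3.10.9 were used.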

Additional observations from a re-analysis of the deposited data

How the results depend on the processing

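The 7 splicing regulator genes with a peak were the same 7 under 6 of 8 alternatives: merging peaks under 1 kb apart, competition from all annotated genes, limits of 10 and 50 kb, every gene within 100 kb, and leaving out dense runs of 5 or more peaks and peaks over 2 kb (chosen after seeing the data). They took 12 to 16 peaks in these settings, against 14. Each of the 7 had a peak inside its span or, for Rbm24, 4.2 kb from it. The distance limits, merging and counting every gene within 100 kb could therefore not remove any of the 7. With all annotated genes competing, the Rbfox2 peak scoring 225 went to Gm24753, which left Rbfox2 the 1 peak scoring 89.5, and the distal Mbnl1 peak went to the pseudogene Gm33707. A score of 100 or more left 4 genes with 4 peaks, 3 of them inside a span. A score of 200 or more left 3 genes with 3 peaks, 2 of them inside. Fewer peaks enter at these scores by construction.

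The other splicing regulators with a peak numbered 2 and 1 at these scores, 2 with competition from all annotated genes, 2 within 10 kb and 18 when every gene within 100 kb counted. That last setting gave 36 splicing targets and 22.0% of all protein-coding genes, and the targets numbered 12 and 5 at the stricter scores. Of all protein-coding genes, 5.96% had a peak with all annotated genes competing and 5.75% within 10 kb. In both settings the 2 of 71 other regulators were a lower share than that. Of 56 counts of peaks for these 7 genes over the alternatives, 41 stayed within 1.5-fold, 14 were lower and 1 (Rbfox2, 4 peaks with every gene within 100 kb) was higher. For the 3 genes without a peak, no alternative here could have added one.

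Depth is unknown, and with 1 library no replicate shows which weak peaks recur. No paired analysis was possible because there was 1 library in each group.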

Other observations

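Of 9 close relatives of the 10 genes, 1 had an assigned MEF2A peak in C2C12 cells, not far above the 7.73% of all protein-coding genes. Their lengths were not compared with those of the 10 genes. The nearest peak was 9522 kb from Mbnl3, the muscleblind gene of the X chromosome, and scored 53.9. For the CELF relatives it was 741 kb from Celf3 (score 189.0), 726 kb from Celf4 (59.7), 432 kb from Celf5 (189.9) and 267 kb from Celf6 (63.1). Rbfox3, known from neurons, was 241 kb from a peak scoring 155.6, and Ptbp3 was 157 kb from one scoring 163. Rbm38, an RNA-binding protein related to Rbm24, was 1309 kb from a peak scoring 818. Within these families the assigned peaks were those of Mbnl1, Mbnl2, Celf1, Celf2, Rbfox1, Rbfox2, Rbm24 and the single weak peak of Ptbp2.

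A further peak in the neighbourhood of Rbfox2, scoring 55.5, lay 56.1 kb from it and was assigned to the apolipoprotein L gene Apol7a, 23.6 kb from the peak. Together with the peak inside Mb, this makes 4 peaks within 100 kb of Rbfox2, of which 2 were assigned to it.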
